A study of Mus musculus with 36 samples.

Results

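The genes described here carry the suffix os, for opposite strand, behind the symbol of a neighbouring gene that is read from the other DNA strand. They were all rows of the deposited tables whose symbol ends in os, or in os and 1 digit, and whose remaining letters are themselves a symbol in the tables, with at least 180 reads summed over the 36 libraries. Of 22979 genes in the tables, 22 had such a symbol and 14 reached the read minimum. The 14 are Slc7a6os, Cebpzos, Epb41l4aos, Wdr83os, Ccpg1os, Chd3os, Fam120aos, Toporsos, Ino80dos, Crxos, Fancd2os, Lppos, Trpc5os and Mkln1os, and each is set beside the partner gene that its symbol names. Just inside the minimum were Lppos with 313 reads, Trpc5os with 239 and Mkln1os with 188, and just outside it were Tbx3os2 with 129, Fmr1os with 107 and Otx2os1 with 49.

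The libraries came from mouse embryonic stem (mES) cells of a Cast x 129S hybrid background with a TetOn promoter that drives Xist in the presence of doxycycline, and with Bgl stem loops in the Xist RNA of the 129S allele. In 3 lines a degron made from FKBP12 was fused to a nuclear RNA factor. The METTL3 line is clone 12D, the YTHDC1 line is clone Y12H and the ZCCHC8 line is clone Z12H, so each protein was represented by 1 clone. In the dTAG arm the ligand dTAG-13, which directs the tagged protein to degradation, was given from 2 h before doxycycline, and the Ctrl arm carried the same degron without the ligand. Both arms received 1 µg/ml doxycycline for 20 h, then a 4 h pulse of 500 µM 4-thiouridine (4sU) with doxycycline, then a chase with 50 mM uridine of 0, 90 or 180 min. Each line, arm and chase had 2 replicates, giving 6 libraries an arm in each line, and every one of the 36 libraries is used below. The labels do not say whether replicates were separate cultures. For its cell culture experiments in general, the study states that a replicate's wells came from a common batch of cells and were assigned to conditions at random, and for RNA-seq that repeats of one clone were independent. P-values measure the spread between libraries of 1 clone. The main count tests and the permutations took the 6 libraries of an arm as separate. They come from 2 replicates, and libraries of one replicate number may not be independent. With chase libraries summed to 2 against 2, 0 genes were called in the METTL3 and YTHDC1 lines. In the ZCCHC8 line 5 of 14 opposite-strand genes were then higher, beside 2060 of 15455 genes.

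METTL3 is the methyltransferase that places N6-methyladenosine (m6A) on nascent RNA, and YTHDC1 is the nuclear reader of that mark. ZCCHC8 is the scaffold of the nuclear exosome targeting (NEXT) complex, which joins the RNA-binding protein RBM7 to the helicase MTREX and hands short, unprocessed nuclear transcripts to the RNA exosome. Mammalian promoters are often transcribed in both directions, and the RNA made upstream of a coding gene on the other strand is a well-known class of NEXT substrate. An opposite-strand gene can be such an upstream transcript, a stable noncoding RNA or an ordinary messenger RNA that happens to start close to its neighbour.

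The name opposite strand did not mean noncoding in this annotation. In GENCODE M21, 9 of the 14 genes are protein coding and 5 are long intergenic noncoding RNAs (lincRNAs): Epb41l4aos, Fam120aos, Ino80dos, Lppos and Mkln1os. The files and the annotation share identifiers, under which Chd3os is the RING finger gene Rnf227 and Toporsos is the small membrane protein gene Smim27. All 14 pairs do lie on opposite strands of one chromosome, but at different distances. In 6 pairs the genes are divergent, with their outermost 5′ ends within 1000 bases of each other (Wdr83os, Ccpg1os, Fam120aos, Toporsos, Lppos and Mkln1os), in 4 the gene bodies overlap in another way (Cebpzos, Ino80dos, Fancd2os and Trpc5os), and in 4 they lie apart (Slc7a6os, Epb41l4aos, Chd3os and Crxos).

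All positions below are mm10, the build the authors used. Fam120aos (chr13:48968287-48972031, + strand) starts 270 bases from the 5′ end of Fam120a and shares no base with it. Toporsos (chr4:40269579-40270940, +) shares 113 exonic bases with Topors and also overlaps Ndufb6. Lppos (chr16:24391612-24393588, −) shares 82 exonic bases with Lpp, and Mkln1os (chr6:31366885-31398773, −) shares 39 with Mkln1. Wdr83os (chr8:85080740-85082339, +) has the largest overlap for its size, since 539 bases or 52.3% of its exonic length are also exonic in Wdr83. Ccpg1os (chr9:72979722-72985382, −) ends 46 bases short of Ccpg1 at their 5′ ends and shares no base with it. These 6 divergent pairs differ most in how much of the exonic sequence both genes claim.

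Among the overlapping pairs, Cebpzos (chr17:78916500-78920306, +) runs into the 3′ part of Cebpz with 171 shared exonic bases, and Fancd2os (chr6:113596761-113600715, −) shares 257 exonic bases with Fancd2. Ino80dos (chr1:63113078-63158290, +) shares 431 exonic bases with Ino80d, its nearest annotated transcript start lies 73 bases from one of Ino80d, and its long body also overlaps Ndufs1. Trpc5os (chrX:144456581-144477066, +) lies inside Trpc5 without touching an exon. Of the pairs that lie apart, Slc7a6os (chr8:106200717-106210935, −) is 2010 bases from Slc7a6, Epb41l4aos (chr18:33794892-33795986, +) 340 from Epb41l4a, Chd3os (chr11:69340461-69342641, +) 631 from Chd3 and Crxos (chr7:15882617-15904020, +) 2648 from Crx. In all, 7 of the 14 genes share exonic bases with their partner. The library kit keeps the strand, but whether the counting used it is not given in the sources used here, so reads over shared bases cannot be told apart between partners in these 7 pairs.

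**Figure D1:**
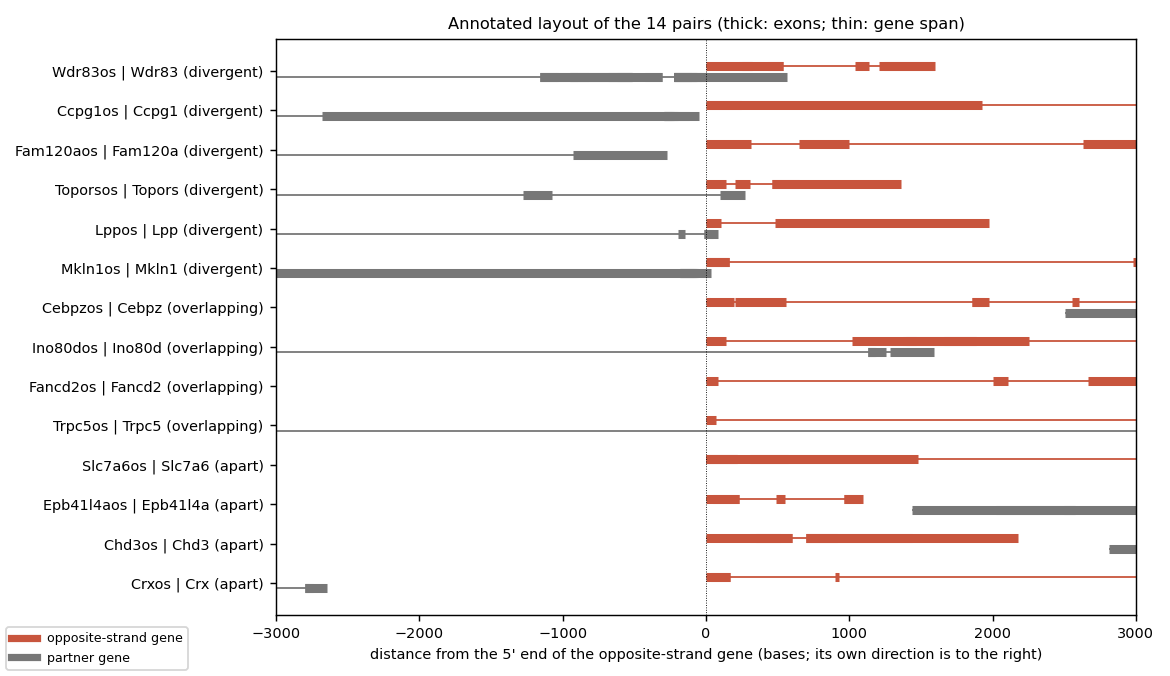
Annotated exons (thick) and gene spans (thin) of the 14 opposite-strand genes and their partners, against the distance in bases from the 5′ end of the opposite-strand gene, with its own direction of transcription to the right. The 6 divergent pairs meet near 0, while Slc7a6 and Fancd2 start or end beyond the range drawn.

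Promoter sequences are shown for 5 of the 6 divergent genes. Ccpg1os is left out, and it rose less in the ZCCHC8 line than Fam120aos, Lppos and Toporsos. The 5 shown share one arrangement but not one outcome in that line. The first 3 rose there, Wdr83os did not pass the test, and Mkln1os had too few reads to be tested. Each is 300 bases from RefSeq on GRCm38.p6, read 5′ to 3′ in the direction of the opposite-strand gene, with 250 bases before the RefSeq start in lower case and the 50 transcribed bases in capitals. They are Fam120aos (chr13:48967862-48968161, +), Lppos (chr16:24393606-24393905, −), Toporsos under its name Smim27 (chr4:40269329-40269628, +), Wdr83os (chr8:85080713-85081012, +) and Mkln1os (chr6:31398724-31399023, −). The RefSeq start can differ from the GENCODE start given above.
Fam120aos: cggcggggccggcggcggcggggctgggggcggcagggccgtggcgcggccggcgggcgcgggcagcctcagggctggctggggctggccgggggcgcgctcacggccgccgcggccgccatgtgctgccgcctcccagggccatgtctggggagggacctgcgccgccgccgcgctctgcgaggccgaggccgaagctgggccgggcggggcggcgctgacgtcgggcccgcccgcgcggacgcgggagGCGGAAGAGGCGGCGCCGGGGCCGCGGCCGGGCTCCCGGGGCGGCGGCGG
Lppos: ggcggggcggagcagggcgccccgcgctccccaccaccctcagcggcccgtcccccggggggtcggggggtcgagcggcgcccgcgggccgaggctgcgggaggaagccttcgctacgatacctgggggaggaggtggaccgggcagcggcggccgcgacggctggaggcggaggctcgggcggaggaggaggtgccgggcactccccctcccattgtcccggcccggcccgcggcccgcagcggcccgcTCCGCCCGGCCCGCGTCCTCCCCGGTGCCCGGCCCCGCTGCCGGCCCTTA
Toporsos: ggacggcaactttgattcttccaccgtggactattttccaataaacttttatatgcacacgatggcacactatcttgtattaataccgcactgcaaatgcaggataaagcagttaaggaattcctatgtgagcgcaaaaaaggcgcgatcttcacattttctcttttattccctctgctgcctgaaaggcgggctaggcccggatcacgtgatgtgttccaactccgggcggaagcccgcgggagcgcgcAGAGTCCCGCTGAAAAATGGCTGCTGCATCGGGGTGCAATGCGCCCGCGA
Wdr83os: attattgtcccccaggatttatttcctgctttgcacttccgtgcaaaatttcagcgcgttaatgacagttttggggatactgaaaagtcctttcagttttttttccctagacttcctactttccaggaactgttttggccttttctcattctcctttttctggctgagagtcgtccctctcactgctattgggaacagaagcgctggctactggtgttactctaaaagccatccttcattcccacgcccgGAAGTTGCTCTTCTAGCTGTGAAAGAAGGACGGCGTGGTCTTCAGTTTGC
Mkln1os: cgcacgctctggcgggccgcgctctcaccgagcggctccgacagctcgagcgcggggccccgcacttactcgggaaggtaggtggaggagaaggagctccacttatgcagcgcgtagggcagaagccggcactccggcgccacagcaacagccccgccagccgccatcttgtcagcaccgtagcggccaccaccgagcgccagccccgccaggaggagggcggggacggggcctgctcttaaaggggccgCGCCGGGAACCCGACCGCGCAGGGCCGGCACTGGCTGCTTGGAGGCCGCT

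RefSeq held a promoter for 12 of the 14 genes. The windows differ most in CpG content: Fam120aos held 54 CpG dinucleotides, a number reached by 0.347% of the 32851 promoters in the table, Lppos 43 (2.61%) and Mkln1os 35 (6.95%). Ccpg1os, whose sequence is not printed, held 33 (8.56%), Toporsos 21 (24.8%) and Wdr83os 9 (45.8%), beside a median of 7 over all promoters. Of all promoters, 37.4% hold the letters CCAAT on either strand, 14.9% hold CCGGAA, 13.6% hold TATAAA, 9.67% hold GGTAAG, 19.6% hold AATAAA and 1.87% hold CGCATGCG. The Fam120aos, Lppos and Mkln1os windows held none of the 6, the Toporsos window held CCAAT once, TATAAA once and AATAAA in 2 places, and the Wdr83os window held CCAAT once, CCGGAA once and AATAAA once. In the Ccpg1os window CCGGAA occurred once and the others were absent. These are matches of letters only, and whether any of them goes with a response was not tested.

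Library totals ran from 5274684 to 18652000 reads and were lowest in the ZCCHC8 line (5274684 to 10257631). The mES cell markers Pou5f1 and Nanog were high in every library, at 355 to 935 and 131 to 423 CPM (reads of a gene in every 1000000 reads of the library), and 10 feeder fibroblast markers summed to 17.1 to 51.8 CPM. The tags act on protein, and the targeted messages were not lower in the dTAG arm of their own line: Mettl3 differed by a log2 fold change of 0.01 (SE 0.087, adjusted p = 0.942), Zcchc8 by 0.07 (SE 0.068, adjusted p = 0.436), and Ythdc1 was higher by 0.60 (SE 0.095, adjusted p = 0.0049). The levels of these messages are therefore no check of protein loss. The study reports loss of the tagged proteins on western blots.

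In the controls the 14 genes covered more than 2 orders of magnitude. Per kilobase of transcript, as the mean RPKM (reads per kilobase of transcript, scaled to library total) of the 6 Ctrl libraries of a line, Cebpzos had the highest level at 40.6 to 49.8 across the 3 lines. Epb41l4aos followed at 38.9 to 41.1, Slc7a6os at 29.2 to 32.8 and Wdr83os at 19.3 to 25.1. Of these 4, only Epb41l4aos is a lincRNA, and it was more abundant per length than its coding partner Epb41l4a, which reached 0.16 to 0.19 of its level. WDR83OS is a subunit of a chaperone complex of the endoplasmic reticulum membrane, and its message was also above that of the WD-repeat gene Wdr83, at 0.38 to 0.43 of it. Slc7a6 stood at 0.37 to 0.43 of the level of Slc7a6os.

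A middle group sat near 1 to 4 RPKM. Ccpg1os (2.94 to 3.61 RPKM), Chd3os (2.36 to 2.92), Toporsos (1.98 to 2.82), Fam120aos (1.58 to 1.84) and Ino80dos (1.23 to 1.46) make up this group. Of neighbours in this order, Chd3os and Toporsos had overlapping ranges across lines, while Ccpg1os lay just above Chd3os, and the other ranges were apart. The partners of all 5 were more abundant per length, from Chd3, a chromatin remodeller of the NuRD complex, at 2.17 to 3.52 times Chd3os to Fam120a, which encodes an RNA-binding protein, at 20.5 to 28.1 times Fam120aos and Topors at 20.4 to 30.5 times Toporsos. Crxos, a homeobox gene, had 0.536 to 0.835 RPKM. Its partner Crx, a photoreceptor transcription factor, had 49 reads in all libraries together. Fancd2os (0.464 to 0.577 RPKM), Mkln1os (0.201 to 0.360), Lppos (0.305 to 0.367) and Trpc5os (0.157 to 0.225) were the least abundant, and Trpc5, a cation channel gene, had 4 reads in all.

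The ZCCHC8 line showed the most responses. With dTAG-13, 8 of the 12 opposite-strand genes tested were higher and 0 were lower at an adjusted p below 0.05 in the edgeR quasi-likelihood test, beside 20.1% of all 13962 genes tested that were higher and 19.5% that were lower. Without the filter on low counts, 7 of 14 were higher and 0 lower, beside 2988 higher and 3162 lower of 21237 genes. The filter counts libraries of either arm, and Lppos and Fancd2os passed it through their dTAG libraries. The median log2 fold change of the 12 was 0.39, and that of all genes was -0.003. Of the 12 partners tested, 2 were higher and 2 lower, with a median of 0.007. Mkln1os and Trpc5os had too few reads to be tested in this line. In the edgeR fit without the filter, Mkln1os had a log2 fold change of -0.87 (SE 0.527, adjusted p = 0.230). Trpc5os had 0.47 in that fit (SE 0.423, adjusted p = 0.463). These are bulk libraries, in which a different number of cells of one kind and a different amount of RNA per cell cannot be told apart.

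Fam120aos, the lincRNA that faces away from Fam120a, had the largest fold change. Its Ctrl libraries ran from 2.13 to 3.69 CPM with a median of 3.02, and its dTAG libraries from 7.46 to 10.6 with a median of 9.43. All 6 dTAG libraries lay above all 6 Ctrl libraries. The mean rose from 2.99 ± 0.504 to 9.43 ± 1.12 CPM (SD, n = 6 each), a log2 fold change of 1.65 (SE 0.145). Fam120a itself was slightly lower, at 241 ± 30.9 and 219 ± 8.38 CPM, with overlapping libraries and a log2 fold change of -0.13 (SE 0.050, adjusted p = 0.035, and 0.392 without replicate 2).

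Toporsos, the small membrane protein gene that faces away from the ubiquitin ligase gene Topors, behaved alike. It ran from 1.77 to 2.63 CPM in Ctrl (median 2.27) and from 4.93 to 8.03 in dTAG (median 6.79). The 2 arms did not overlap, and the log2 fold change was 1.56 (SE 0.160). Topors was higher too, but by 0.18 (SE 0.055, adjusted p = 0.010, and 0.065 without replicate 2), with 138 to 230 CPM in Ctrl and 166 to 262 in dTAG, and its libraries overlapped. The 113 exonic bases that the genes share are 9.83% of those of Toporsos.

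Lppos, a lincRNA that starts beside the focal adhesion gene Lpp, was the third gene without overlap. It held 2 to 7 reads in each Ctrl library and 7 to 22 in each dTAG library, which is 0.358 to 0.828 CPM (median 0.582) against 1.07 to 2.76 (median 1.68). The log2 fold change was 1.57 (SE 0.311, adjusted p = 0.00027), and the few reads leave the size of this change uncertain. Lpp was not called, at -0.14 (SE 0.090, adjusted p = 0.218).

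For 2 more genes the means moved as far as the spread between libraries, but single libraries overlapped. Fancd2os, which overlaps the 3′ end of the DNA repair gene Fancd2, ran from 0.179 to 1.15 CPM in Ctrl (median 0.677) and from 1.13 to 2.52 in dTAG (median 1.77). Its log2 fold change was 1.34 (SE 0.328, adjusted p = 0.0020), while Fancd2 stayed at 55.5 ± 9.90 and 55.1 ± 7.13 CPM. Ino80dos, a lincRNA beside a subunit gene of the INO80 chromatin remodeller, ran from 1.57 to 3.99 CPM in Ctrl (median 2.01) and from 2.92 to 6.52 in dTAG (median 4.48). The single Ctrl library above the lowest dTAG libraries was replicate 1 at 180 min, and the log2 fold change was 0.93 (SE 0.184). Ino80d did not pass the test, at 0.02 (SE 0.046, adjusted p = 0.787).

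The other 3 genes that passed had small changes. Epb41l4aos rose from 16.7 ± 2.26 to 21.5 ± 1.59 CPM, a log2 fold change of 0.37 (SE 0.097, adjusted p = 0.0040), and was higher in dTAG in 6 of 6 pairs of the same chase and replicate number. Chd3os, at 4.90 ± 0.960 and 6.40 ± 1.17 CPM, had 0.41 (SE 0.152, adjusted p = 0.035) and was higher in 5 of 6 pairs. Ccpg1os, at 6.97 ± 0.882 and 8.47 ± 0.877 CPM, had 0.30 (SE 0.117, adjusted p = 0.042). None of these 3 was past the threshold once replicate 2 was left out (adjusted p = 0.062, 0.645 and 0.221), when 5 of 12 genes were higher beside 12.7% of all genes, and DESeq2 called 6 of 14, without Chd3os and Ccpg1os, beside 11.1%. Their partners Epb41l4a, Chd3 and Ccpg1 did not pass the test, at 0.10 (SE 0.099), -0.004 (SE 0.061) and 0.08 (SE 0.049).

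The 3 most abundant coding genes of the set and Crxos did not pass in the ZCCHC8 line. Slc7a6os had a log2 fold change of 0.08 (SE 0.049, adjusted p = 0.191), Cebpzos 0.05 (SE 0.075, adjusted p = 0.601) and Wdr83os 0.04 (SE 0.077, adjusted p = 0.747). Crxos had 0.15 (SE 0.240, adjusted p = 0.657), and this wide error leaves a moderate change in either direction undetectable at this depth. Wdr83os is a case where the partner moved instead: Wdr83 rose from 25.6 ± 1.09 to 31.5 ± 2.29 CPM without overlap (0.30, SE 0.066, adjusted p = 0.00078, and 0.076 without replicate 2), while Wdr83os stood at 23.1 ± 2.29 and 23.7 ± 1.52.

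The same counts were taken over all genes of each annotated type. In the ZCCHC8 line 64% of the 358 lincRNAs tested were higher, with a median log2 fold change of 0.92, against 18.8% of 13542 protein-coding genes with a median of -0.009. All 4 lincRNAs of the set that were tested were higher, with a median of 1.25, and so were 4 of the 8 coding genes, with a median of 0.22. By position, 4 of the 5 divergent genes tested were higher (median 1.56), 2 of the 3 overlapping genes (median 0.93) and 2 of the 4 that lie apart (median 0.26). The tested divergent gene that was not higher was Wdr83os. Mkln1os, a divergent lincRNA, is in neither count, and without the filter its log2 fold change was -0.87. All these shares are of genes past the filter, which a gene can pass through its dTAG libraries alone, as Lppos and Fancd2os did. Shares by type were not counted without the filter. The counts of the set are small and describe it without a test between classes.

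Some markers of other cell states were also higher in dTAG in the ZCCHC8 line, beside 20.1% of all genes higher and 19.5% lower. Of the primed epiblast markers Fgf5, Otx2, Pou3f1 and Dnmt3b, 3 of 4 were higher and 0 lower, with a summed level of 243 to 478 CPM in Ctrl and 341 to 587 in dTAG. Of 6 trophectoderm markers, 3 of the 4 tested were higher (sums of 37.7 to 49.0 and 46.8 to 68.3 CPM), of 6 primitive endoderm markers 1 of 5 (7.33 to 11.0 and 9.27 to 13.7), of 4 neural markers 2 of 4 (194 to 266 and 204 to 257) and of 4 mesoderm markers 0 of 2 (4.21 to 7.05 and 3.76 to 8.82). Of 10 feeder markers, 5 were tested and 1 was lower, and of 10 mES cell markers 3 were higher and 1 lower. The trophectoderm gene Cdx2 was at 0 in 10 of the 36 libraries and the fibroblast gene Lum in 22. In the METTL3 line the primitive endoderm, trophectoderm, primed epiblast, mesoderm and neural markers each had 1 higher, beside 11.3% of all genes. Primed epiblast and feeder markers each had 1 lower there, beside 8.8%, and in the YTHDC1 line 0 markers passed. The part of these markers in the changes of the opposite-strand genes was not tested.

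**Figure D2:**
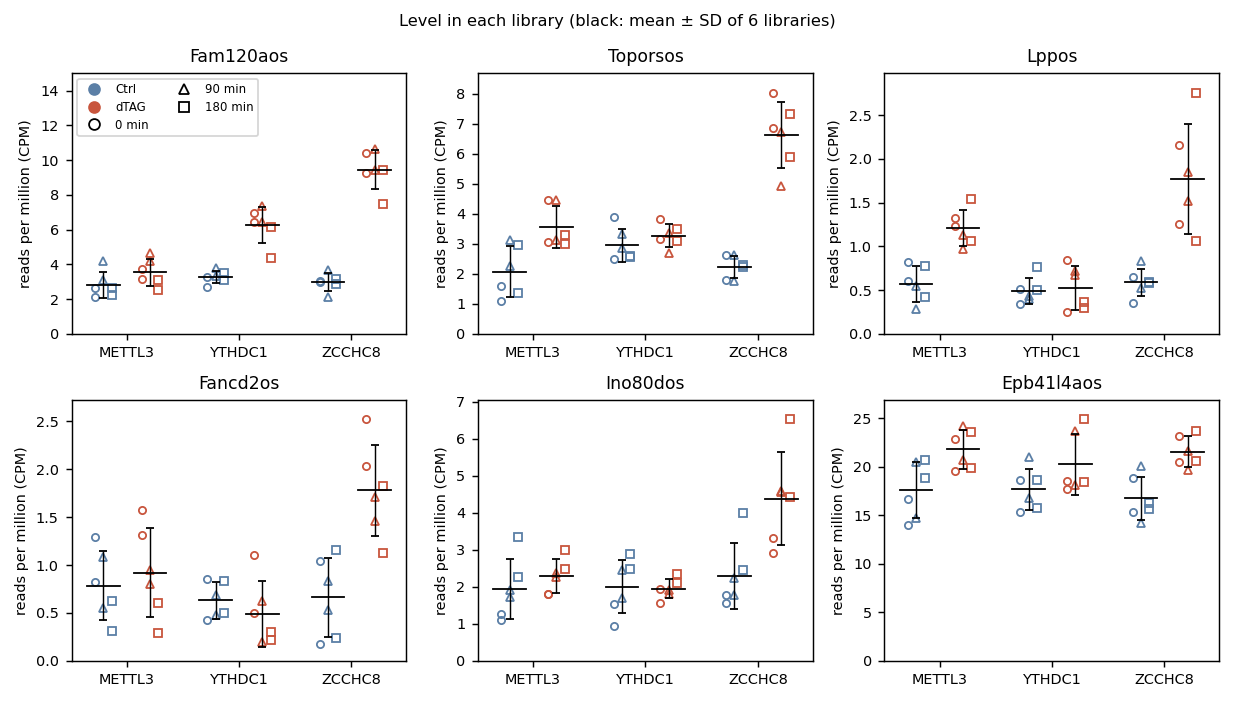
Level in CPM of 6 opposite-strand genes in each of the 36 libraries, by line, with Ctrl in blue and dTAG in red, the chase time as the symbol and black lines at the mean and SD of 6 libraries. In the ZCCHC8 line the dTAG points of Fam120aos (7.46 to 10.6), Toporsos (4.93 to 8.03) and Lppos (1.07 to 2.76) all lie above the Ctrl points, while those of Fancd2os, Ino80dos and Epb41l4aos overlap them.

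In the METTL3 line 2 of 13 opposite-strand genes tested were higher with dTAG-13 and 0 were lower, beside 11.3% of 14413 genes higher and 8.8% lower. In this fit, which leaves out the pairing of the arms by replicate number, the share is close to the background. With the replicate number as a block, 6 of 13 were higher and 24.4% of all genes were. The 13 had a median log2 fold change of 0.29, and all genes one of 0.006.

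Lppos was again among the genes that rose. It ran from 0.278 to 0.821 CPM in Ctrl (median 0.572) and from 0.965 to 1.55 in dTAG (median 1.19), with no overlap. Here too Lppos passed the filter through its dTAG libraries. Without the filter, 2 of 14 opposite-strand genes were higher, beside 1355 of 21587 genes. The log2 fold change was 1.07 (SE 0.235, adjusted p = 0.0088), and Lpp was not called at 0.17 (SE 0.255, adjusted p = 0.694). Crxos was the second gene, with 0.838 to 1.95 CPM in Ctrl (median 1.44) and 1.90 to 2.80 in dTAG (median 2.46). Its libraries overlapped slightly, all 6 pairs were higher in dTAG, and the log2 fold change was 0.78 (SE 0.210, adjusted p = 0.023). Crx had 14 reads in this line and was below the filter. In the edgeR fit without the filter, Crx had a log2 fold change of 2.08 (SE 0.824, adjusted p = 0.119). Whether Crxos shared its response with Crx is therefore not settled by these reads.

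The 4 genes called only with the replicate block were Chd3os, Toporsos, Slc7a6os and Epb41l4aos. Chd3os had 6.07 ± 1.31 CPM in Ctrl and 10.5 ± 3.71 in dTAG, a log2 fold change of 0.77 (SE 0.271, adjusted p = 0.069, and 0.00019 with the block). Toporsos had 2.06 ± 0.847 and 3.56 ± 0.693 CPM, with 0.77 (SE 0.270, adjusted p = 0.066, and 0.0016 with the block). Both were higher in 6 of 6 pairs. Topors moved with Toporsos here, from 172 to 300 CPM in Ctrl to 314 to 382 in dTAG without overlap (0.57, SE 0.115). Slc7a6os, whose product is the counterpart of a yeast factor for nuclear import of RNA polymerase II, had 0.31 (SE 0.141, adjusted p = 0.156, and 0.0041 with the block), and Epb41l4aos 0.29 (SE 0.134, adjusted p = 0.155, and 0.026 with the block).

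The genes that did not pass in the METTL3 line covered both directions. Fam120aos stood at 2.82 ± 0.753 and 3.55 ± 0.787 CPM (0.32, SE 0.139, adjusted p = 0.131), Ino80dos at 1.93 ± 0.811 and 2.29 ± 0.446 (0.28, SE 0.168, adjusted p = 0.271) and Fancd2os at 0.784 ± 0.363 and 0.921 ± 0.468 (0.19, SE 0.260, adjusted p = 0.656). Ccpg1os had 0.13 (SE 0.168), Wdr83os -0.14 (SE 0.188) and Cebpzos -0.15 (SE 0.128). Trpc5os, the X-linked gene of the set, was lower in dTAG in 6 of 6 pairs at 0.806 ± 0.263 and 0.536 ± 0.202 CPM, but its log2 fold change of -0.60 (SE 0.228, adjusted p = 0.135) did not pass. Mkln1os, a lincRNA beside the muskelin gene Mkln1, was below the filter in this line. Its Ctrl libraries held 3, 4, 11, 12, 12 and 7 reads and its dTAG libraries 6, 3, 1, 5, 1 and 3, and without the filter the log2 fold change was -1.36 (SE 0.480, adjusted p = 0.078).

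In the YTHDC1 line 1 of 11 opposite-strand genes tested was higher and 0 were lower, beside 2.48% of 14199 genes higher and 2.77% lower. The gene was Fam120aos. It ran from 2.67 to 3.76 CPM in Ctrl (median 3.29) and from 4.35 to 7.36 in dTAG (median 6.44), with no overlap between the arms. The mean went from 3.27 ± 0.370 to 6.28 ± 1.04 CPM, a log2 fold change of 0.90 (SE 0.124, adjusted p = 0.0025). Fam120a did not pass at 0.20 (SE 0.125, adjusted p = 0.447), although with the replicate block its 0.21 did (adjusted p = 0.0053). The block, with which 13.2% of all genes were higher, added Ccpg1os to the genes called, at 6.79 ± 1.15 and 8.90 ± 2.08 CPM (0.35, SE 0.119, adjusted p = 0.125, and 0.018 with the block).

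The largest change at these loci in the YTHDC1 line was in a partner. Cebpz, which encodes a nucleolar ribosome assembly protein, ran from 286 to 393 CPM in Ctrl (median 357) and from 78.9 to 91.7 in dTAG (median 89.3). The arms lay far apart, and the log2 fold change was -2.0 (SE 0.087). Cebpzos, whose gene overlaps the end of Cebpz, stood at 34.2 ± 2.90 and 33.6 ± 2.42 CPM (-0.06, SE 0.096, adjusted p = 0.824). The arms of Cebpzos differed by less than the spread between libraries, beside a partner at 0.25 of its Ctrl level. Wdr83 (-0.49, SE 0.111, adjusted p = 0.028), Chd3 (-0.53, SE 0.086, adjusted p = 0.0056) and Topors (-0.31, SE 0.067, adjusted p = 0.022) also fell, while Wdr83os, Chd3os and Toporsos had 0.08 (SE 0.118), -0.12 (SE 0.168) and 0.12 (SE 0.154).

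The other opposite-strand genes of the YTHDC1 line had log2 fold changes between -0.50 and 0.17 and did not pass. Lppos, which was higher in both other lines, held 3 to 10 reads in each library, with 0.490 ± 0.147 CPM in Ctrl and 0.525 ± 0.251 in dTAG, and was below the filter. Fancd2os and Mkln1os were below it as well. Mkln1os held 2, 2, 6, 5, 10 and 5 reads in Ctrl and 2, 5, 8, 11, 10 and 13 in dTAG, and without the filter its log2 fold change was 0.78 (SE 0.301, adjusted p = 0.235).

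**Figure D3:**
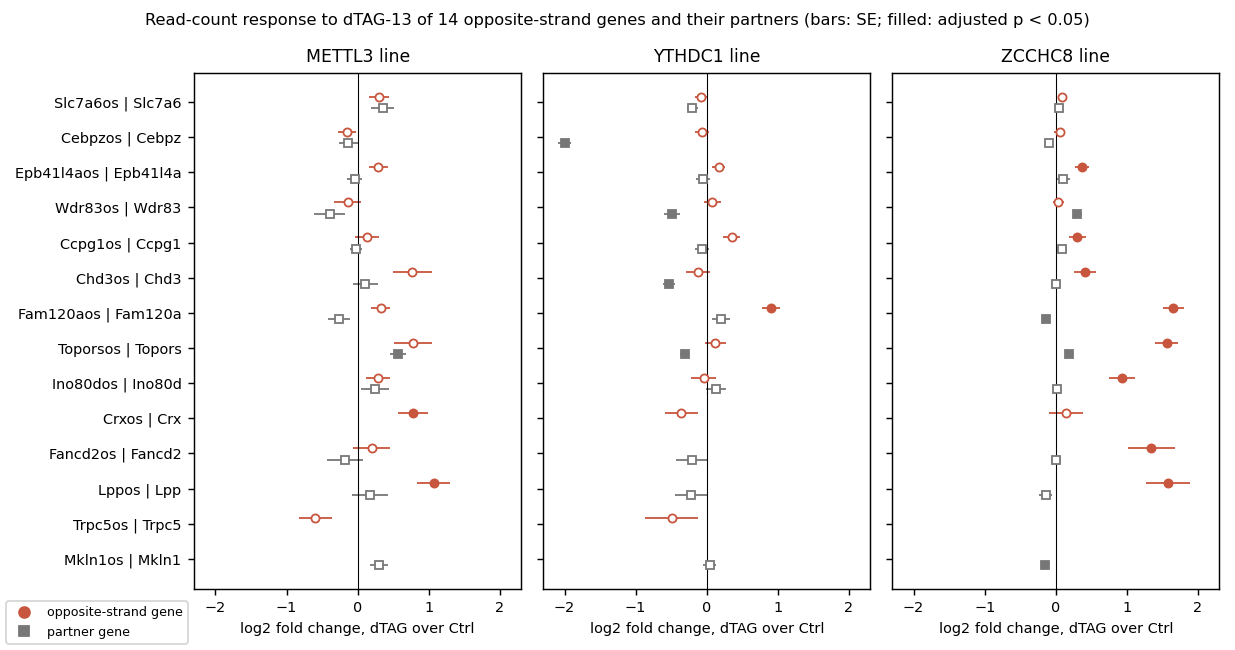
Log2 fold change of reads, dTAG over Ctrl, of the 14 opposite-strand genes (red circles) and their partners (grey squares) in the 3 lines, with bars for the SE and filled symbols for an adjusted p below 0.05. In the ZCCHC8 line 8 red symbols are filled and lie between 0.30 and 1.65, and in the YTHDC1 line Cebpz stands apart at -2.0.

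Whether the responses differed between lines was tested directly, by the interaction of arm and line over the 36 libraries. For ZCCHC8 against METTL3, 1 of the 14 genes differed, beside 23.7% of 15105 genes. It was Fam120aos, whose response was larger in the ZCCHC8 line by 1.30 on the log2 scale (SE 0.18, adjusted p = 3.77e-06). With the replicate block, and beside 43.5% of all genes, 4 more differed: Toporsos (0.78, adjusted p = 0.0050, and 0.052 without the block), Ino80dos (0.64, 0.032 and 0.054), Fancd2os (1.09, 0.033 and 0.079) and, in the other direction, Slc7a6os (-0.25, 0.014 and 0.222). The difference for Lppos, which rose in both lines, was 0.48 (SE 0.406, adjusted p = 0.446).

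For ZCCHC8 against YTHDC1, 5 of the 14 differed, beside 14.4% of all genes, and all 5 were larger in the ZCCHC8 line. They were Fancd2os (1.74, SE 0.484, adjusted p = 0.014), Lppos (1.49, SE 0.428, adjusted p = 0.017), Toporsos (1.38, SE 0.282, adjusted p = 0.0010), Ino80dos (0.93, SE 0.238, adjusted p = 0.0077) and Fam120aos (0.70, SE 0.175, adjusted p = 0.0064). Of the 5, Toporsos alone passed without either replicate. Leaving out replicate 1 ended the calls of Fam120aos (adjusted p = 0.066), Fancd2os (0.061) and Lppos (0.194), and leaving out replicate 2 those of Fam120aos (0.072), Ino80dos (0.106) and Lppos (0.085). The block, with 32.3% of all genes called, added Mkln1os in the other direction (-1.70, adjusted p = 0.022, and 0.050 without it). Fam120aos was thus higher in dTAG in both lines.

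For METTL3 against YTHDC1, 4 of the 14 differed, beside 20.6% of all genes. Crxos (1.10, SE 0.315, adjusted p = 0.012) and Chd3os (0.86, SE 0.301, adjusted p = 0.041) responded more positively in the METTL3 line. Fam120aos (-0.60, SE 0.173, adjusted p = 0.013) and Mkln1os (-2.16, SE 0.514, adjusted p = 0.0030) responded more positively in the YTHDC1 line. Without replicate 1 the call of Chd3os was lost (adjusted p = 0.111), and without replicate 2 those of Crxos (0.130), Fam120aos (0.432) and Mkln1os (0.088). With the block, and beside 42.8% of all genes, Slc7a6os (0.35, adjusted p = 0.00072, and 0.080 without it), Toporsos (0.59, 0.021 and 0.118) and Lppos (1.03, 0.040 and 0.077) were added. The 3 tests share libraries, since each line enters 2 of them.

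The reads of an opposite-strand gene were then set over those of its partner in the same library, which removes the library size. The log2 of this ratio was compared between arms by an exact two-sided permutation of the arm labels within each chase time, for which 0.0093 is the smallest p possible. There were 35 such tests over pairs with at least 60 reads of each gene in the line, and their p-values are not adjusted. In the ZCCHC8 line 7 of 11 ratios were higher in dTAG and 1 was lower, in the METTL3 line 2 of 12 and 1, and in the YTHDC1 line 7 of 12 and 0. Other gene pairs were not put through this test. These counts therefore have no background share beside them and do not set these pairs apart from others.

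In the ZCCHC8 line 4 ratios had no overlap between arms. Fam120aos over Fam120a lay between -6.71 and -5.99 in Ctrl and between -4.93 and -4.34 in dTAG, a difference of 1.78. Toporsos over Topors went from -6.36 ± 0.382 to -5.00 ± 0.421 (1.36), Lppos over Lpp from -5.14 ± 0.266 to -3.54 ± 0.655 (1.60) and Ino80dos over Ino80d from -5.23 ± 0.285 to -4.31 ± 0.236 (0.91). Each of these 4 reached the smallest p of the exact test, 0.0093. Fancd2os over Fancd2 had 1.54 with overlap (exact permutation p = 0.019). Chd3os (0.38, exact p = 0.046) and Ccpg1os (0.20, exact p = 0.028) did not hold when arms were exchanged within the 6 pairs of equal chase and replicate number (exact p = 0.094 and 0.062, where 0.031 is the smallest possible). Wdr83os over Wdr83 was the ratio that fell, by 0.26 (exact p = 0.0093), and there the partner rose.

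In the YTHDC1 line some ratios rose beside a lower partner and others beside a higher opposite-strand gene. Cebpzos over Cebpz went from -3.33 ± 0.202 to -1.39 ± 0.069 without overlap, a difference of 1.94 (exact permutation p = 0.0093), with Cebpz lower and Cebpzos not called. Wdr83os over Wdr83 (0.57, exact p = 0.0093) and Chd3os over Chd3 (0.45, exact p = 0.046) also rose beside a partner that fell. For Fam120aos over Fam120a (0.68, exact p = 0.0093) and Ccpg1os over Ccpg1 (0.42, exact p = 0.0093) the opposite-strand gene was the higher one. Slc7a6os over Slc7a6, an amino acid transporter gene, rose by 0.13 (exact p = 0.0093) and Mkln1os over Mkln1 by 0.66 (exact p = 0.028, and 0.062 within pairs).

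In the METTL3 line Mkln1os over Mkln1 went from -6.73 ± 0.528 to -8.40 ± 1.23 and was lower in dTAG in 6 of 6 pairs, a difference of -1.66 (exact permutation p = 0.0093). Mkln1os thus had ratios that moved in opposite directions in the METTL3 and YTHDC1 lines, and in both it rests on 1 to 13 reads a library. Lppos over Lpp rose by 0.82 (exact p = 0.028) and Fam120aos over Fam120a by 0.56 (exact p = 0.019). The Fam120aos ratio was the one that rose in all 3 lines, by 0.56, 0.68 and 1.78.

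**Figure D4:**
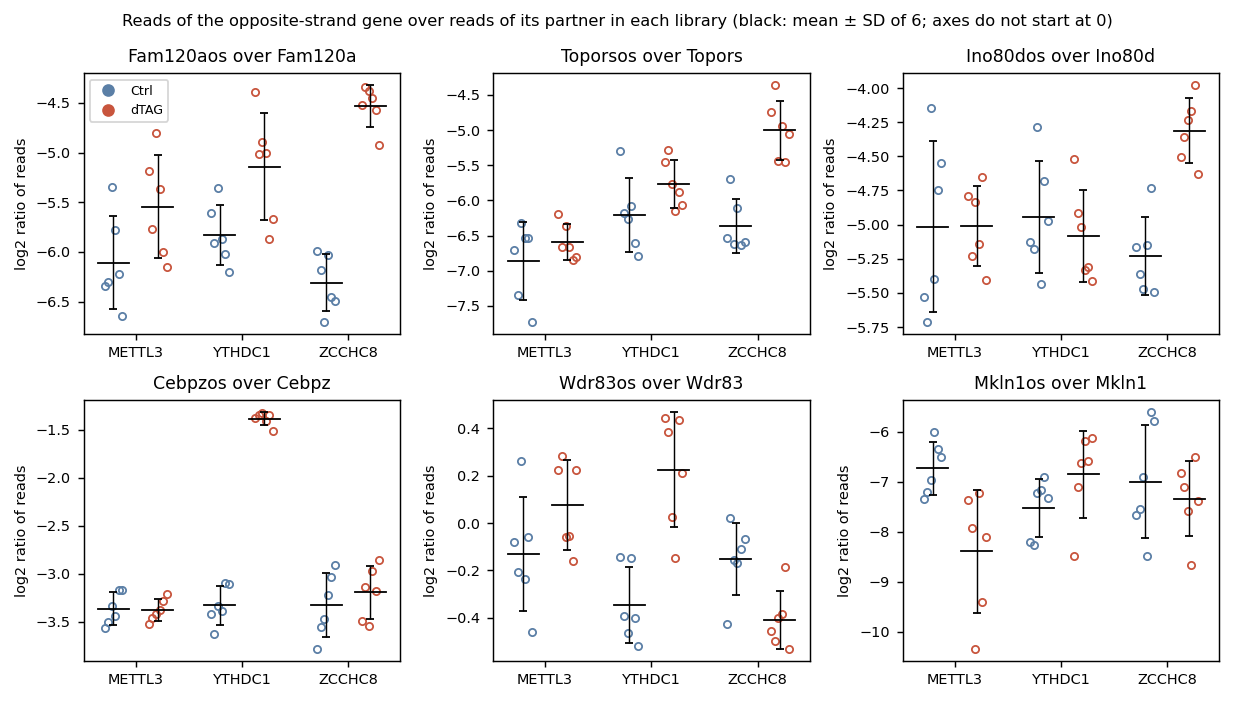
Log2 ratio of the reads of 6 opposite-strand genes to those of their partners in each library, with Ctrl in blue, dTAG in red and black lines at the mean and SD of 6; the axes do not start at 0. Fam120aos, Toporsos and Ino80dos separate in the ZCCHC8 line, Cebpzos separates in the YTHDC1 line (-3.33 against -1.39), and Mkln1os is lower in dTAG in the METTL3 line.

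The T-to-C conversions that 4sU leaves in the reads give a second readout. The files hold for each gene and library the share of reads assigned to new RNA, as the most probable value of a mixture model (MAP), which is 1 when all reads are assigned to RNA made during the pulse. It was compared between genes and their partners in the 6 Ctrl libraries at 0 min, for the 6 pairs with at least 20 reads of each gene in every one of them, as a description without a test.

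Chd3os stood out by its label. Its share of new RNA at the end of the pulse ran from 0.857 to 1.00 (median 0.927), while Chd3 ran from 0.174 to 0.213 (median 0.186), so that every library had Chd3os above Chd3. The raw conversions had the same order, at 5.63 to 9.22% of covered T positions for Chd3os and 1.43 to 1.83% for Chd3. After 180 min of chase the Ctrl share of Chd3os had fallen to 0.48 of its starting value for METTL3 and to 0.34 for YTHDC1 (means of 2 replicates). The median share over all genes with enough reads fell as well. It went from 0.623 and 0.635 to 0.429 and 0.458 for METTL3, and from 0.590 and 0.631 to 0.411 and 0.394 for YTHDC1. The share of Chd3 rose in the same libraries, to 1.21 and 1.35 of its start. Ccpg1os had the opposite arrangement, with a median of 0.388 beside 0.628 for Ccpg1, a receptor gene for selective autophagy of the endoplasmic reticulum, and was below it in 6 of 6 libraries.

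In the other pairs both genes were labelled more alike. Cebpzos had a median share of 0.227 and Cebpz of 0.304, with Cebpzos lower in 6 of 6 libraries. Slc7a6os had 0.673 and Slc7a6 0.720, Epb41l4aos 0.548 and Epb41l4a 0.610, and Wdr83os 0.329 and Wdr83 0.385, each with libraries in both orders. Within this set Cebpzos and Wdr83os thus had the lowest shares of new RNA and Chd3os the highest.

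With dTAG-13 the share of new RNA was tested by limma on log2(MAP + 0.05), centred on the library median, in genes with at least 30 reads in every library of the line. In the METTL3 line 1 of 6 opposite-strand genes passed, beside 29.8% of 10715 genes. This was Chd3os, higher by 0.19 (SE 0.062, adjusted p = 0.041, and 0.169 without replicate 1 or 0.354 without replicate 2), and when the libraries were not centred its value was -0.01, while Wdr83os passed at -0.30 (adjusted p = 0.023) beside 31.8% of all genes. Without centring the median gene was lower by 0.14 on the log2 scale, and the calls over all genes turned from 2257 higher and 940 lower to 314 higher and 3090 lower. In the YTHDC1 line 0 of 7 passed beside 0.0819% of 10984 genes, and in the ZCCHC8 line 0 of 5 beside 0.238% of 10079. At an unadjusted p below 0.05 the count in the ZCCHC8 line was 1, Epb41l4aos at -0.17 (SE 0.076), and in the YTHDC1 line 0.

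The genes that rose most in the ZCCHC8 line had too few reads for that test, so their label is given for the 2 libraries of an arm at 0 min. Fam120aos had shares of 0.926 and 0.652 in Ctrl and of 0.580 and 0.469 in dTAG. Over both libraries 7.12% of covered T positions were converted in Ctrl (95% Wilson interval 5.70 to 8.86) and 3.65% in dTAG (3.12 to 4.28), intervals that cover counting error only. Its partner Fam120a went from 5.28% to 3.91%, and was lower as well. As levels, the new RNA of Fam120aos had a mean of 2.39 CPM in Ctrl and 5.13 in dTAG, and the older RNA 0.636 and 4.70. Both means were higher, and the older one more so. The Ctrl libraries held 5589652 and 7654370 reads in all, so the older Ctrl part rests on few reads and its size is uncertain.

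Toporsos was labelled less than Fam120aos. Its conversions were 2.86% in Ctrl (2.05 to 3.99) and 2.84% in dTAG (2.37 to 3.40), beside 10.2% and 8.53% for Topors. New Toporsos RNA had a mean of 0.764 CPM in Ctrl and 2.84 in dTAG, and older RNA 1.44 and 4.60, so both means were higher. The Ctrl parts of Toporsos rest on few reads as well. For Ino80dos both Ctrl libraries had a share of 1.00, from 10 and 12 reads, and the dTAG libraries 0.753 and 0.659, from 23 and 21. Its conversions were 8.71% (6.74 to 11.2) and 6.84% (5.57 to 8.37), and the intervals overlap.

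In the YTHDC1 line the label at the end of the pulse differed between arms more for Cebpz than for Cebpzos. At 0 min Cebpz had shares of 0.311 and 0.343 in Ctrl and of 0.566 and 0.586 in dTAG, with 2.77% of positions converted (2.71 to 2.84) against 4.62% (4.46 to 4.79). Its new RNA fell from a mean of 127 to 52.5 CPM and its older RNA from 262 to 38.7. The limma test over all chases gave 0.40 (SE 0.105, adjusted p = 0.138) and did not pass. Cebpzos had 1.88% (1.72 to 2.06) and 2.16% (2.00 to 2.35), with older RNA at 26.4 and 26.0 CPM. Fam120aos in this line had 5.07% (4.25 to 6.04) in Ctrl and 4.14% (3.64 to 4.71) in dTAG, with new RNA at 2.15 and 3.75 CPM and older RNA at 0.807 and 2.95.

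**Figure D5:**
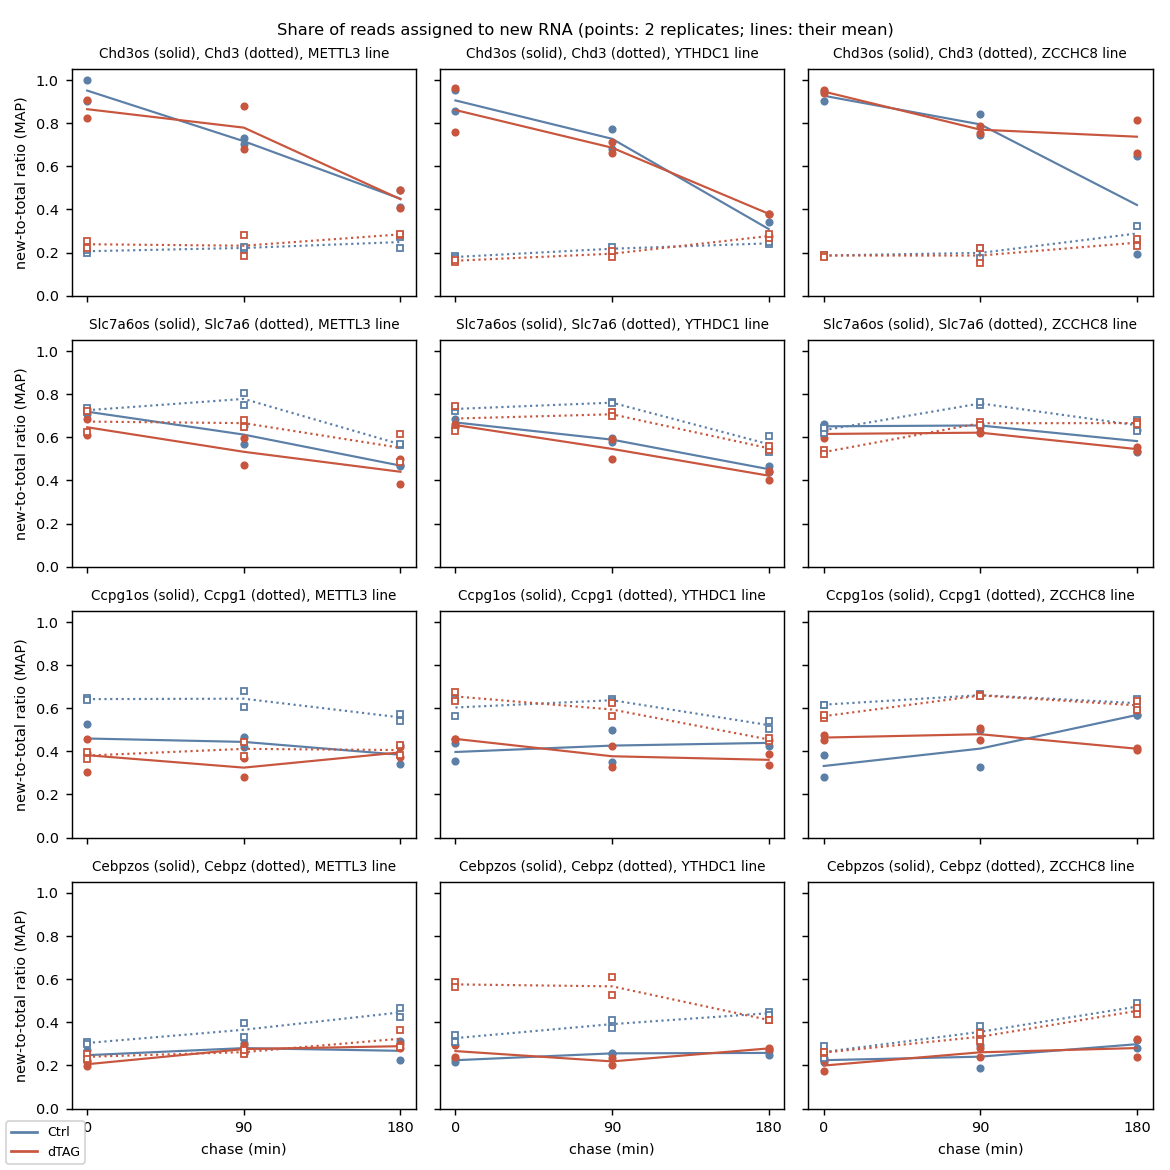
Share of reads assigned to new RNA (MAP, from 0 to 1) against chase time in min for 4 opposite-strand genes (solid) and their partners (dotted) in the 3 lines, with points for the 2 replicates and lines at their mean, Ctrl in blue and dTAG in red. Chd3os starts between 0.857 and 1.00 in Ctrl while Chd3 starts between 0.174 and 0.213. In the YTHDC1 line Cebpz with dTAG-13 starts above 0.56 while Cebpzos starts below 0.3.

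The messages of the complexes that act on short nuclear transcripts were counted in the same tests. Of the NEXT genes Zcchc8, Rbm7 and Mtrex, 0 of 3 passed in any line. Of the genes of PAXT, the complex that targets longer polyadenylated nuclear RNA to the exosome, 1 of 2 was higher in the ZCCHC8 line (Zfc3h1, 0.23, SE 0.064) and 0 in the others. Of 13 nuclear exosome genes, the ZCCHC8 line had 3 higher and 3 lower, the METTL3 line 3 and 1, and the YTHDC1 line 0. Of 4 genes of the cap-binding complex and its adaptors, 1 was higher in the ZCCHC8 line (Srrt, 0.33) and 1 lower in the METTL3 line (Ncbp1, -0.54). Of 3 genes of the U1 snRNP, which protects nascent messages from early termination, 1 was lower in the ZCCHC8 line (Snrnp70, -0.15) and 0 passed elsewhere. Of 7 m6A writer genes, 2 were higher in the METTL3 line (Wtap, 1.07, and Virma, 0.62), 1 in the ZCCHC8 line (Rbm15, 0.28) and 0 in the YTHDC1 line. Of 14 genes of Integrator, which ends transcription of short transcripts, the ZCCHC8 line had 5 higher and 1 lower, the METTL3 line 2 and 4, and the YTHDC1 line 0. These shares stand beside the backgrounds of 20.1% and 19.5%, 11.3% and 8.8%, and 2.48% and 2.77% given above.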

How the data were processed

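The study sequenced total RNA of 36 SLAM-seq libraries, in which 4sU incorporated during a pulse is read as T-to-C conversions. According to the methods and labels, the authors aligned the reads to mm10 with STAR 2.5.2b and quantified UCSC genes with GRAND-SLAM, whose version is not given in the sources used here. They deposited 6 tables, 1 per line and replicate. The deposited read counts are raw counts per gene, the deposited new-to-total ratio is a fraction per gene (MAP and posterior mean), and the deposited conversions and coverage are signal summed over T positions. A further 180 library columns were not used, and the tables hold no comparisons by the authors.

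Counts were tested per line with edgeR 4.0.16 (quasi-likelihood, chase time as a factor, filterByExpr, TMM, R 4.3.3) and, across lines, by the interaction of arm and line. Ratios were tested with limma 3.58.1 on log2(MAP + 0.05). Benjamini-Hochberg adjustment ran over all genes tested, with a threshold of 0.05. DESeq2 1.42.0 was an alternative. CPM was scaled to the library total. Pair ratios added 0.5 to the reads. Permutation tests, Wilson intervals and motif counts used Python 3.11.15 and scipy 1.17.1.

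Same-numbered libraries of the 2 arms deviated together at every chase time (r over genes 0.555 to 0.739 in the METTL3 line, 0.613 to 0.683 in YTHDC1, 0.150 to 0.166 in ZCCHC8), so the numbers pair the samples, and blocked values stand beside calls they change. Replicates of a group differed by more than counting noise (chi-square over degrees of freedom 2.34 to 72.6). On simulated data in which 200 genes had a log2 change of 1, the count test recovered 64% of them for the METTL3 line, 85.5% for YTHDC1 and 94% for ZCCHC8, out of 13816, 13693 and 13404 genes.

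The members and gene lists were chosen with earlier results of these data known. Genes are named where they changed in all 6 pairs of a line, had the most reads, differed between lines, passed the ratio test or lay next to the read minimum, which together name all 14. The lists were markers of mES, feeder, primitive endoderm, trophectoderm, primed epiblast, mesoderm and neural cells, and the genes of NEXT, PAXT, the nuclear exosome, the cap-binding complex, the U1 snRNP, the m6A writer and Integrator.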

Additional observations from a re-analysis of the deposited data

Results flagged for a closer look

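Of 84 sets of 6 libraries (a gene, a line and an arm), 2 had 1 library far from the others by Dixon's 95% limit, and chance alone gives about 1 in 20. Ccpg1os in the dTAG arm of the METTL3 line was lowest in replicate 1 at 180 min, at 4.45 CPM beside 6.43 to 7.27 in the other 5 libraries. Ino80dos in the Ctrl arm of the ZCCHC8 line was highest in replicate 1 at 180 min, at 3.99 CPM beside 1.57 to 2.45.

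The other 10 are differences between lines in the response to dTAG-13, each by a test of the difference itself and given on the log2 scale. Fam120aos differed in all 3 comparisons, by 1.30 for ZCCHC8 minus METTL3, 0.70 for ZCCHC8 minus YTHDC1 and -0.60 for METTL3 minus YTHDC1. Toporsos (1.38), Ino80dos (0.93), Lppos (1.49) and Fancd2os (1.74) differed for ZCCHC8 minus YTHDC1. Crxos (1.10), Chd3os (0.86) and Mkln1os (-2.16) differed for METTL3 minus YTHDC1. Lppos, Fancd2os and Mkln1os rest on at most 22 reads a library.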

How the results depend on the processing

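Most alternatives kept the direction and the side of the threshold. Of 247 alternatives for single genes that had passed, 203 kept both, 43 lost the threshold and 1 reversed. With the replicate number as a block the METTL3 line had 6994 genes and 6 opposite-strand genes called, the YTHDC1 line 3875 and 2, ZCCHC8 minus METTL3 6574 genes with 4 opposite-strand genes higher and 1 lower, ZCCHC8 minus YTHDC1 4881 with 1 lower, and METTL3 minus YTHDC1 6465 with 5 higher. Among the partners the block also added Slc7a6 (0.35), Wdr83 (-0.39), Fam120a (-0.25) and Mkln1 (0.29) in the METTL3 line, Slc7a6 (-0.20), Fam120a (0.21) and Fancd2 (-0.21) in the YTHDC1 line and Cebpz (-0.10) in the ZCCHC8 line, and it turned Fancd2 in the ZCCHC8 line to 0.00071. It changed no other call on the genes named. DESeq2 called 4 opposite-strand genes higher in the METTL3 line and 1132 genes in the YTHDC1 line. With the chase libraries summed to 2 against 2, edgeR called 0 genes and 0 opposite-strand genes in the METTL3 line (1433 and 2 at an unadjusted p below 0.05) and 0 and 0 in the YTHDC1 line (696 and 1), and 5 opposite-strand genes in the ZCCHC8 line, where Fancd2 was at 0.0047. Ino80d in the ZCCHC8 line, near 0 throughout, was at -0.0066 with DESeq2, -0.0061 with its size factors, -0.0041 without a filter and -0.011 with summed libraries. Ino80dos over Ino80d in the METTL3 line was at -0.0042 with 1 added to the reads. For the new-to-total ratio, a minimum of 100 reads gave 0 opposite-strand genes higher in the METTL3 line, where Chd3os was no longer tested, and 84 and 180 genes called in the YTHDC1 and ZCCHC8 lines. Without centring, 0 were higher and 1 lower in the METTL3 line, with Slc7a6os at -0.14, Cebpzos at -0.042 and Chd3os at -0.011, 22 genes were called in the YTHDC1 line, and Cebpzos (-0.037) and Wdr83os (-0.046) turned in the ZCCHC8 line. The cause of these changes was not tested, except that summing and the higher minimum leave fewer libraries or genes.

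Leaving out replicate 1 or 2 gave 5717 to 7472 genes and 5 to 6 opposite-strand genes higher in the METTL3 line, 1335 to 3555 and 1 to 2 in the YTHDC1 line, and 3409 to 5091 and 5 to 6 in the ZCCHC8 line, with the lowest number of genes in each line without replicate 2. Between lines it gave 4160 to 6372 genes for ZCCHC8 minus METTL3 with 1 to 3 opposite-strand genes higher and 1 lower, 1786 to 4396 for ZCCHC8 minus YTHDC1 with 2 higher and 0 to 1 lower, and 3760 to 6485 for METTL3 minus YTHDC1 with 1 to 3 lower. The ratio tests then called 0 genes and 0 opposite-strand genes in each of the 3 lines (limma, 794 to 2872 genes at an unadjusted p below 0.05). Some log2 values changed sign when a replicate was left out, and none of them had passed. In the METTL3 line these were Wdr83os -0.37 to 0.051, Ccpg1os -0.032 to 0.35, Epb41l4a -0.10 to 0.045, Ccpg1 -0.035 to 0.019, Chd3 -0.085 to 0.26 and Lpp -0.050 to 0.57. In the YTHDC1 line these were Slc7a6os -0.16 to 0.0050, Cebpzos -0.17 to 0.037, Chd3os -0.26 to 0.029 and Lpp -0.37 to 0.0019. In the ZCCHC8 line these were Cebpzos -0.088 to 0.17, Wdr83os -0.049 to 0.14, Crxos -0.14 to 0.46, Slc7a6 -0.039 to 0.13, Chd3 -0.035 to 0.028, Fancd2 -0.066 to 0.070 and Lpp -0.31 to 0.011. For ZCCHC8 minus METTL3 they were Cebpzos -0.033 to 0.32, Epb41l4aos -0.081 to 0.14, Wdr83os -0.13 to 0.45, Ccpg1os -0.082 to 0.28 and Chd3os -0.90 to 0.18. For ZCCHC8 minus YTHDC1 they were Ccpg1os -0.27 to 0.11. For METTL3 minus YTHDC1 they were Cebpzos -0.21 to 0.050, Epb41l4aos -0.0021 to 0.31, Wdr83os -0.53 to 0.060, Ccpg1os -0.54 to 0.20 and Trpc5os -0.36 to 0.093. For the new-to-total ratio in the METTL3 line they were Cebpzos -0.0037 to 0.32, Epb41l4aos -0.10 to 0.080, Wdr83os -0.23 to 0.029 and Ccpg1os -0.034 to 0.021. For the new-to-total ratio in the YTHDC1 line they were Cebpzos -0.00029 to 0.13, Epb41l4aos -0.075 to 0.19, Wdr83os -0.055 to 0.15, Ccpg1os -0.30 to 0.22 and Chd3os -0.0081 to 0.14. For the new-to-total ratio in the ZCCHC8 line they were Slc7a6os -0.039 to 0.0035, Cebpzos -0.16 to 0.20 and Wdr83os -0.24 to 0.27. At 5274684 to 18652000 reads a library, the least abundant genes hold single-digit read numbers, so changes of Lppos, Fancd2os, Trpc5os and Mkln1os are measured with the largest errors.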
